A study of Mus musculus with 12 samples.

Results

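LSD1 (KDM1A) binding was mapped by ChIP-seq in the liver of wild-type C57BL/6 mice. ChIP-seq pulls down cross-linked chromatin with an antibody against a protein and sequences the attached DNA, and a peak is a stretch where reads exceed those of a control. The deposited LSD1 list holds 14584 entries of the 109150 in the 3 peak lists of the series, and every entry was used. Each entry pairs a peak of the first-listed LSD1 library with the overlapping peak of the second-listed LSD1 library. The ChIP libraries were made with an LSD1 antibody from Abcam, and each of the 2 had a control library, which the sample labels describe as made without antibody and the study's methods as IgG ChIP. The list cannot be matched to the replicate numbers of the labels, holds no reads and keeps no peak found in 1 library alone, so sequencing depth is unknown and no value per mouse can be formed. Age, sex and diet of these mice are not stated in the labels, and wild type is the only genotype among the LSD1 libraries. The other libraries of the series measured H3K4me2, dimethylated lysine 4 of histone H3, in GFP control liver and in liver-specific LSD1 knockout liver. Of these, only the 43891 H3K4me2 entries of control liver were set beside the LSD1 peaks.

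LSD1 is a flavin-dependent demethylase that removes methyl groups from mono- and dimethylated lysine 4 of histone H3, a mark of active promoters and enhancers, and in some settings from lysine 9. It has no sequence-specific DNA-binding domain of its own and is brought to chromatin by transcription factors and by the CoREST complex, which also carries the histone deacetylases HDAC1 and HDAC2. In the liver, hepatocytes make up most of the tissue mass and run lipid, glucose and amino acid metabolism, bile acid synthesis and the secretion of plasma proteins.

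LSD1 peaks were concentrated at gene starts, and most of all the peaks with the lowest p-values. The center of 4970 peaks (34.1%, 95% Wilson confidence interval 33.3% to 34.9%) lay at a promoter, taken as 1 kb on either side of a transcription start site (TSS) of a protein-coding gene, and promoters make up 2.44% of the genome outside assembly gaps. Promoter peaks lay in CpG-rich DNA and nearly always in H3K4me2, whereas the other 9614 peaks lay in DNA poor in CpG and carried H3K4me2 in 32.0% of cases. The intervals given here and below cover counting error only.

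The DNA under the highest-ranking peaks shows this contrast. Ranks run from 1 to 14584 by the −log10 p-value averaged over both libraries. The windows below are 120 bases of the mm10 (GRCm38) reference next to the summits of promoter peaks at ranks 2, 3, 5 and 7, chosen from the highest-ranking promoters for an exon-free window there, with every CpG in capitals. Zdhhc17 holds 20 CpGs and Hira 13, while the Gpcpd1 window holds 3, and 79 of its bases are annotated as repeats.
Gpcpd1, chr2:132578395-132578514, plus strand: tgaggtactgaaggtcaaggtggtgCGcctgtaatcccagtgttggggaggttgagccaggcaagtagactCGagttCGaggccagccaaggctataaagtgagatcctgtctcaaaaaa
Zdhhc17, chr10:111009818-111009937, plus strand: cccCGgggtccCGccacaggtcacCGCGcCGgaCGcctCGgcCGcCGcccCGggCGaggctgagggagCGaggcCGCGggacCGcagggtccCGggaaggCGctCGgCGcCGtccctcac
Rab23, chr1:33719767-33719886, plus strand: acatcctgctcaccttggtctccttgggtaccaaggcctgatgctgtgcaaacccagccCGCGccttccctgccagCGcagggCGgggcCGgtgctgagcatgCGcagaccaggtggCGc
Hira, chr16:18876863-18876982, plus strand: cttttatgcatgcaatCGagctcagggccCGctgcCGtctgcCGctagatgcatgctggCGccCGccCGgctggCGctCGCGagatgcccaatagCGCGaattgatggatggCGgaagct

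The next windows come from the highest-ranking peaks between genes, at ranks 13, 18, 28 and 29, and are shown because they differ among themselves. The Anxa3 window is a run of short triplet repeats and is repeat-masked over all 120 bases. The Epha2 and Fdx1 windows hold no CpG, and 89 bases of the Fdx1 window are repeat-masked. Onecut3 holds 19 CpGs, as dense as a promoter.
Anxa3, chr5:96846701-96846820, plus strand: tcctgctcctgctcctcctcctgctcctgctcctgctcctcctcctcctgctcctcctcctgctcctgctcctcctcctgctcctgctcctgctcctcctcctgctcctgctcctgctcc
Epha2, chr4:141280775-141280894, plus strand: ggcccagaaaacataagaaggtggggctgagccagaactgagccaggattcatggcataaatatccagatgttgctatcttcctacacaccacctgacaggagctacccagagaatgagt
Onecut3, chr10:80475453-80475572, plus strand: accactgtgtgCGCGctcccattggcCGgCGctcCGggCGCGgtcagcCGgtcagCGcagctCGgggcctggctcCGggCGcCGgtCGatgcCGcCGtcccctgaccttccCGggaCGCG
Fdx1, chr9:51993726-51993845, plus strand: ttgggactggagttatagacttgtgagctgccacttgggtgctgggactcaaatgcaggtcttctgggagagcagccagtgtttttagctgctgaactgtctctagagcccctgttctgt

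Over all peaks, the median ratio of observed to expected CpG in the 500 bp around the peak center was 0.81 at promoter peaks and 0.19 beyond them, and the median GC content was 64.8% and 46.4%. All 500-bp windows of the genome had a median GC content of 41.4%. A CpG ratio of at least 0.6 was found at 78.8% of promoter peaks and at 4.58% of the others.

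Beyond promoters, introns and the space between genes shared the peaks almost evenly. Introns of protein-coding genes held 4243 peaks (29.1%), of which 1895 (13%) were in first introns and 2348 (16.1%) in later ones. First introns make up 11.5% of the genome and later introns 22.5%, so that the share of peaks was 1.13 times the share of the genome in first introns and 0.71 times in later ones. Space between genes held 4011 peaks (27.5%, interval 26.8% to 28.2%) and makes up 53.4% of the genome, a ratio of 0.52. Coding exons held 209 peaks (1.43%), 3′ UTRs 170 (1.17%) and 5′ UTRs beyond the promoter 13. Exons of noncoding transcripts held 376 peaks (2.58%) and introns of noncoding genes 592 (4.06%). These ratios compare lengths only, since the part of the genome that the reads could be mapped to is not known.

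**Figure D1:**
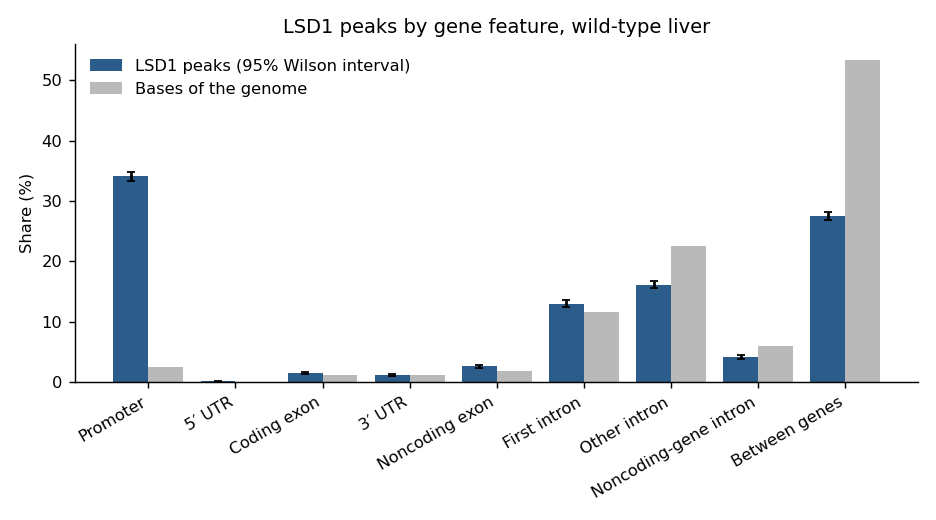
Share of the 14584 LSD1 peaks (percent, by the position of the peak center) in each kind of gene feature, beside the share of the genome outside assembly gaps that the feature takes up. Whiskers are 95% Wilson confidence intervals for counting error. Promoters hold 34.1% of peaks on 2.44% of the genome, and space between genes holds 27.5% of peaks on 53.4%.

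Promoter peaks were also wider and stronger. They spanned a median of 525 bp in the first-listed and 740 bp in the second-listed library. Peaks beyond promoters spanned 379 and 482 bp. Their median fold enrichment, the ChIP pileup at the summit divided by the local background of the control as MACS reports it, was 3.32 and 3.55 against 2.82 and 2.90. Both libraries gave a q-value of 0.05 or less to 25.8% of promoter peaks and to 8.55% of the others. With the list cut into 5 equal parts by rank, the promoter share rose from 11.3% in the lowest-ranking part through 18.2%, 32.0% and 47.4% to 61.5% in the highest-ranking part. The share between genes ran the other way, from 39.0% to 15.8%, as did the share in introns, from 38.9% to 16.8%. Of the 146 peaks in the top 1%, 104 were at promoters.

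**Figure D2:**
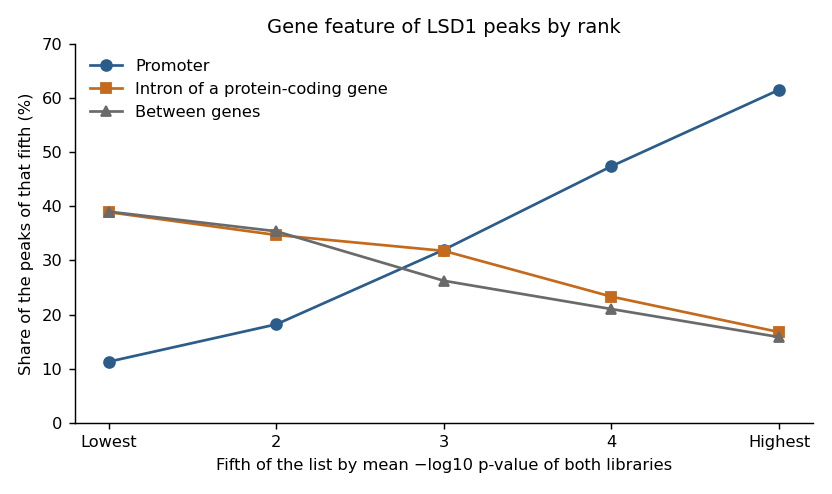
LSD1 peaks in 5 equal parts of the list by mean −log10 p-value (x axis, lowest-ranking part on the left), with the percentage of peaks at promoters, in introns and between genes. The promoter line climbs from 11.3% to 61.5% while introns fall to 16.8% and space between genes to 15.8%.

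Within promoters the peaks lay close to the TSS. Of all peaks, 1947 (13.4%) were centered less than 100 bp from the nearest TSS and 2498 (17.1%) between 100 and 500 bp from it, while the next 500 bp held only 524 (3.59%). The median distance of a promoter peak to the TSS was 140 bp, and 3587 peaks (24.6% of the list) covered a TSS. Centers lay downstream of the TSS, on the transcribed side, in 57.1% of promoter peaks (interval 55.7% to 58.5%), with a median position of 25 bp downstream. The share downstream was 56.4% with the summits of the first-listed library and 58.2% with those of the second-listed library, and it was 57.7% of promoter peaks in the lower-ranking 50% of the list and 56.9% in the higher-ranking 50%. Further out, 3668 peaks (25.2%) lay 10 to 50 kb from the nearest TSS, 1952 lay over 100 kb away, and the median over all peaks was 8136 bp. Overlap with control H3K4me2 by at least 1 bp fell along the same axis, from 94.4% of the peaks within 100 bp of a TSS to 50.1% at 1 to 5 kb, 32.9% at 10 to 50 kb and 3.23% beyond 500 kb.

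**Figure D3:**
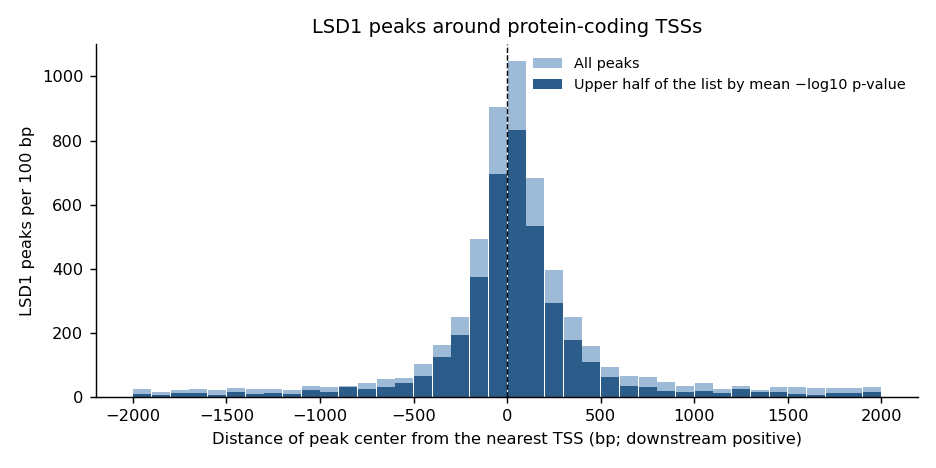
Number of LSD1 peak centers per 100 bp (y axis) by distance to the nearest protein-coding TSS (x axis, bp, positive values downstream), for all peaks and for the higher-ranking 50% of the list. The highest bin is the 100 bp just downstream of the TSS with 1049 peaks, next to 904 just upstream, and the counts fall below 100 per bin 500 bp away on either side.

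A number of the peaks beyond promoters sat at starts of other transcripts. Of the 9614, 840 (8.74%) were centered within 1 kb of a TSS that is not that of a protein-coding transcript. For 289 of these it belonged to a noncoding transcript of a protein-coding gene, for 164 to a lincRNA, for 74 to an antisense RNA, for 73 to a processed pseudogene, for 32 to a miRNA and for 16 to a snoRNA. The following were chosen after their values were seen. Malat1, an abundant nuclear RNA, had a peak 616 bp upstream of a start, with fold enrichments of 5.61 in the first-listed and 6.61 in the second-listed library (rank 237). Dubr, a lincRNA, had one of 3.82 and 8.08 (rank 233), and the snoRNA gene Rnu3b1 one of 6.22 and 3.26 (rank 713). A peak of 5.01 and 4.97 lay at the start of Frmd8os, next to Neat1.

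The 10 genes with the highest-ranking promoter peaks held 8 peaks, because 2 pairs of genes share one. Gpcpd1 (ENSMUSG00000027346), a glycerophosphocholine phosphodiesterase, had the highest, chr2:132577633-132578720, with fold enrichments of 13.4 and 14.0 in the first- and second-listed libraries. Zdhhc17, a palmitoyltransferase, followed with 15.8 and 10.7, then Epc1, a subunit of the NuA4 histone acetyltransferase complex, with 13.7 and 8.01. Rab23, a small GTPase that restrains Hedgehog signaling, had 13.1 and 12.7, and Btbd2 had 7.49 and 17.8. The peak at rank 7 (10.8 and 11.5) served the starts of both Hira, a chaperone of histone H3.3, and Mrpl40, a protein of the mitochondrial ribosome. Limk2, a kinase of the actin cytoskeleton, had 11.9 and 10.2, and a peak of 13.7 and 6.72 lay between Nsl1, a kinetochore protein, and Tatdn3. All 8 peaks overlapped control H3K4me2. Both libraries placed them far above the median fold of the list, 2.90 and 3.01, although at Btbd2 and Nsl1 one library gave over 2 times the value of the other.

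In exons beyond the promoter, the highest-ranking peaks were weaker. Each is named here by the protein-coding gene with the nearest start. Those in coding exons were nearest Ythdc2 (8.54 and 6.41, rank 82), Gfod2 (3.01 and 8.47, rank 267) and Aox3 (2.49 and 8.57, rank 377). Those in 3′ UTRs were nearest Bcr (4.70 and 8.12, rank 198) and Gpr182 (4.34 and 7.19, rank 358). The centers named by Gfod2, Aox3 and Bcr lay upstream of that start, so the exon can belong to another gene. Ythdc2 is an RNA helicase that binds methylated adenosine. The distance to the nearest start was 1.15 kb at Ythdc2, just outside the promoter window, and 2.17 kb at Gpr182.

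In introns, Cblc, a ubiquitin ligase, had the highest-ranking peak (5.41 and 8.53, rank 37), which lay 337 bp from the start of another, noncoding transcript of the same gene. Zmat4 had a peak of 7.8 and 8.19 that lay 353 kb into the gene and did not overlap H3K4me2. Gdf15, a secreted stress hormone, had 6.01 and 10.2 at rank 51, with its center 1012 bp from the start, just outside the promoter window. The peak nearest Hjurp, a centromeric histone chaperone, was wide (1357 and 1205 bp) with folds of 3.70 and 3.23.

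Between genes, the highest-ranking peaks lay near Anxa3 (9.95 and 9.16), Epha2 (3.76 and 14.7), Onecut3 (6.75 and 9.25), Fdx1 (7.58 and 9.97) and Ermard (10.2 and 6.73). Their distances to the named start ran from 5.0 kb at Anxa3 to 78.2 kb at Ermard, and the named gene gives only the position. Of these 5, only the Onecut3 and Fdx1 peaks overlapped control H3K4me2. Onecut3 belongs to a family of liver and neural homeobox factors, and Fdx1 is a mitochondrial ferredoxin that passes electrons to cytochrome P450 enzymes.

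Repeats were few at promoter peaks and more common elsewhere. Soft-masked repeats covered over 50% of the peak at 0.926% of promoter peaks and 14.2% of the others. Of all bases of the genome 36.4% are masked, but this is a share of bases and cannot be set against those shares of peaks. Of the 1363 peaks beyond promoters that were over 50% masked, 9.02% overlapped H3K4me2, against 35.8% of the rest. In the top 1% of the list 42 peaks lay beyond promoters, 11 of them were over 50% masked, and 3 of those 11 overlapped H3K4me2. Whether repeats played a part in the calls was not tested.

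The longest peak was also at rank 1. It lay at chr17:39843469-39848820, spanned 5352 bp in the first-listed and 4329 bp in the second-listed one, and had fold enrichments of only 2.77 and 1.91, with −log10 p-values of 71.2 and 24.3. It overlapped an exon of the lincRNA Gm42418, carried no H3K4me2 peak, and its nearest protein-coding start, that of Esp38, was 104 kb away. The next longest peaks were at metabolic and chromatin genes. A peak of 2333 bp covered the promoter of Fasn, fatty acid synthase, the enzyme that makes palmitate (5.17 and 3.26), and one of 2274 bp lay in the first intron of Anp32a, an inhibitor of histone acetylation (3.67 and 3.77).

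LSD1 peaks followed genes along the chromosomes. The autosomes held 4.97 to 9.12 peaks per Mb outside gaps, with chromosome 3 lowest and chromosome 19 highest, and Spearman's rho with the number of protein-coding genes per Mb was 0.83 across the 19 autosomes, which share the same libraries. The X chromosome stood below this range with 133 peaks, 0.814 per Mb, or 14.0 per 100 protein-coding genes against 43.5 to 99.2 on the autosomes. The control H3K4me2 list was also sparser there, with 4.0 peaks per Mb against 16.6 over the genome. The Y chromosome held 7 LSD1 peaks. The labels give no sex for these mice, and the study's methods name males for most but not all of its experiments. The part of chromosome number, gene content and mappability in the X value was not tested.

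Among protein-coding genes, 5163 of 21853 (23.6%, interval 23.1% to 24.2%) had a peak overlapping a promoter. Nearly all of these promoters were marked, because 4989 of the 12857 genes with a control H3K4me2 promoter peak also had LSD1 (38.8%), whereas of the 8996 genes without one, 174 did (1.93%). CpG content divided the genes in the same way. With genes split into 5 equal groups by the CpG ratio of their promoter, 4.90% of the lowest group and 45.6% of the highest had an LSD1 promoter peak. Among genes with H3K4me2 the spread over these groups was smaller, reaching 47.4% in the highest and 32.9% in the lowest. Of the 2156 genes whose start lies within 1 kb of a start on the opposite strand, 902 had a peak (41.8%), against 21.6% of the others. Genes with 4 or more annotated starts had one in 35.8% of cases and genes with 1 start in 17.3%, and each further start adds window that a peak can overlap.

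Several peaks were common at single genes. Each peak was assigned to the nearest protein-coding TSS, which gave 8478 genes with a peak, 38.8% of all. Of these, 5273 had 1 peak, 1805 had 2 and 1400 had 3 or more, and the last group held 39.1% of all peaks. The count went up to 15. Genes with 3 or more peaks were long, with a median length of 63.0 kb against 24.2 kb for genes with 1 peak and 12.1 kb for genes with none, and 60.5% of them had a promoter peak. In 3738 genes every assigned peak lay outside the gene's own promoter windows, and 517 genes had more than 1 promoter peak. Only 18 genes had 3 or more peaks that each passed a q-value of 0.05 in both libraries, against 1400 when all peaks were counted.

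Pik3r1, the regulatory subunit of phosphoinositide 3-kinase that carries the insulin signal, had the most peaks, 15 over 577 kb. Of these, 2 were at promoters, 1 in an intron of a protein-coding gene, 3 in introns of noncoding genes and 9 between genes, and 6 overlapped H3K4me2. The strongest, with folds of 5.2 and 4.79 at rank 676, lay 319 kb from the nearest Pik3r1 start within a noncoding gene, while the promoter peaks had 2.67 and 4.19, and 2.67 and 2.66. Rbpms, an RNA-binding protein, followed with 14 peaks over 195 kb. Its promoter held 2, at 2.54 and 5.34 and at 3.67 and 5.34, and the strongest of all, 4.27 and 6.69 at rank 685, lay 63.2 kb upstream. Adgrl2, an adhesion receptor, had 14 peaks, 12 of them between genes and none at the promoter, spread over 1885 kb.

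Other genes with many peaks fell into the same kinds. At Foxn3, a forkhead repressor with a role in liver glucose handling, 11 of 13 peaks lay inside the gene, and 10 were in introns. Zmiz1, a coactivator of the androgen receptor and SMADs, had 7 of 11 peaks inside the gene, and Lpp, a focal adhesion protein, 6 of 12. Introns of noncoding genes held 3 of the Zmiz1 peaks and 4 of the Lpp peaks. Tbl1xr1, a subunit of a nuclear receptor corepressor complex, had 12 peaks over 1095 kb of which 10 were between genes, and its folds stayed between 1.86 and 3.49 in the first-listed library. St3gal5, the sialyltransferase that makes the ganglioside GM3, had 12 peaks and none at the promoter.

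Some peaks were packed into short stretches. With neighbours joined when less than 10 kb apart, 4500 peaks (30.9%) had a neighbour, and 474 stretches held 3 or more peaks and 33 held 5 or more. Peaks with a neighbour overlapped H3K4me2 in 65.6% of cases and single peaks in 47.4%. The largest stretch held 9 peaks over 32.9 kb at chr6:47739727-47772591 near Pdia4, a protein disulfide isomerase of the endoplasmic reticulum. All 9 carried H3K4me2, and their folds were low, 1.48 to 2.76 in the first-listed and 1.79 to 3.53 in the second-listed library. A stretch of 8 lay nearby, chr6:47654793-47686014, assigned to Ezh2, the H3K27 methyltransferase, although the RefSeq annotation puts an Rn4.5s RNA gene, which belongs to a repeated family, within it. Reads from near-identical copies cannot be placed with certainty, and their part in these peaks was not tested.

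Other dense stretches lay at named genes. Pim3, a survival kinase, had 8 peaks over 26.3 kb, 6 of them with H3K4me2. The stretch of 8 over 11.6 kb at Frmd8 and Neat1, the RNA that builds nuclear paraspeckles, was the most compact of those with 8. Bbc3, which encodes the apoptosis inducer PUMA, shared 7 peaks over 28.3 kb with Ccdc9.

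**Figure D4:**
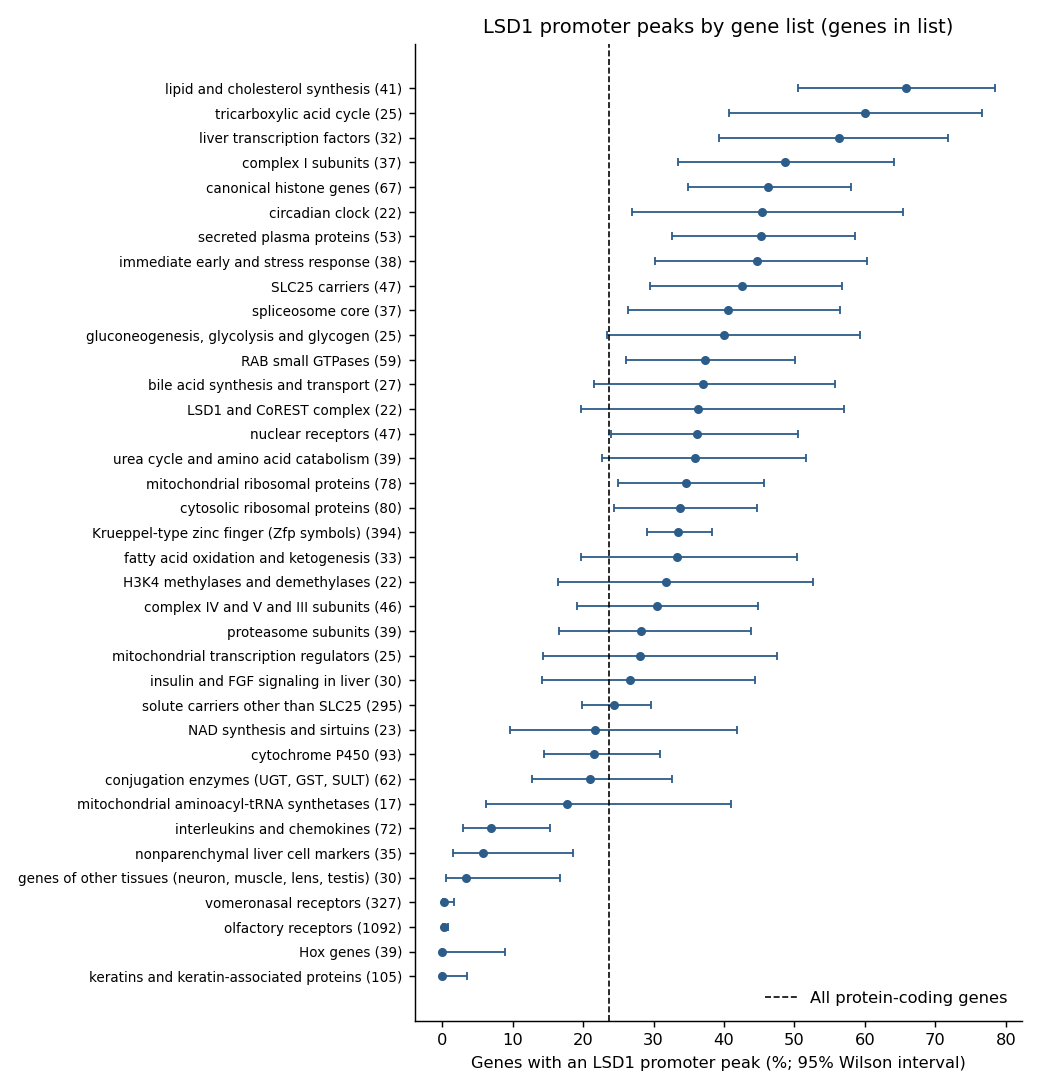
Percentage of genes with an LSD1 promoter peak in each of 37 gene lists (points, with 95% Wilson confidence intervals and the count of members), beside a vertical line at the share of all protein-coding genes (23.6%). The share of genes with control H3K4me2 at the promoter (38.8%) is not drawn. Lipid and cholesterol synthesis lies furthest right at 65.9%, and Hox genes and keratins have no member with a promoter peak.

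The functions of the genes were described with 37 lists, 18 of named genes and 19 of gene families, of which 26 had a larger share of members with a promoter peak than all genes. When only members with H3K4me2 at the promoter were counted, 16 lists had a larger share than the 38.8% of all such genes. Mitochondrial and cytosolic ribosomal proteins, proteasome subunits and Zfp genes lay above the share of all genes but below this 38.8%. So did solute carriers other than SLC25, fatty acid oxidation, urea cycle and amino acid catabolism, and mitochondrial transcription regulators. Insulin and FGF signaling and the H3K4 methylases and demethylases did so as well. Genes can be in more than 1 list. The 3 highest-ranking members are named for most lists, and members named beyond those with a peak were chosen after their values were seen. The shares are descriptions of the lists and were not tested, and no list is shown to differ from others of like expression or CpG content.

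Lipid and cholesterol synthesis stood highest, with 27 of 41 genes (65.9%, interval 50.5% to 78.4%). Insig1, the sterol sensor that holds SREBP in the endoplasmic reticulum, had the highest-ranking peak (4.92 and 5.50, rank 721), ahead of Elovl5 (3.67 and 5.91) and Fads2 (3.34 and 5.70), which lengthen and desaturate fatty acids. Regulators and enzymes both had peaks. Srebf1 had 3.76 and 4.99 and Fasn 5.17 and 3.26, whereas the peak of Fdps had 1.76 and 2.51 at rank 14201. No promoter peak was listed at Dgat2 or Mvk.

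Lists of mitochondrial energy metabolism spread over a wide range. The tricarboxylic acid cycle had 15 of 25 genes, led by Sdhb of succinate dehydrogenase (5.66 and 5.38, rank 514), Dlst of the 2-oxoglutarate dehydrogenase complex (3.90 and 3.82) and Aco1, the cytosolic aconitase (5.81 and 2.45), and Idh2 had no promoter peak. Complex I subunits had 18 of 37 (48.6%), led by Ndufs4 (8.07 and 5.2, rank 85), Ndufv2 (3.67 and 5.77) and Ndufs7 (4.34 and 3.92). Subunits of complexes III, IV and V had 14 of 46 (30.4%), with Cycs, cytochrome c, highest at 5.68 and 5.34. SLC25 carriers, which move metabolites across the inner membrane, had 20 of 47 (42.6%), led by Slc25a29 (5.87 and 5.93), Slc25a35 (3.24 and 8.71) and Slc25a47 (7.98 and 3.03).

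Mitochondrial ribosomal proteins had 27 of 78 (34.6%), with Mrpl40, Mrpl48 (4.98 and 10.4) and Mrps30 (5.74 and 6.41) on top, and cytosolic ribosomal proteins 27 of 80 (33.8%), with Rpl7 (4.56 and 6.63) on top. Fatty acid oxidation and ketogenesis had 11 of 33 (33.3%), led by Acads (4.84 and 5.25), while Cpt1a, which admits fatty acids to the mitochondrion, had no promoter peak. Regulators of mitochondrial transcription had 7 of 25 (28.0%), led by Mterf3 (7.12 and 5.59, rank 171), Polg, the mitochondrial DNA polymerase, and Nrf1 (5.39 and 4.12), without a promoter peak at Tfam or Ppargc1a. Mitochondrial aminoacyl-tRNA synthetases had 3 of 17, of which Pars2 ranked highest (5.22 and 5.39). Among members with H3K4me2 at the promoter, the share was 34.2% for mitochondrial and 35.5% for cytosolic ribosomal proteins. It was 33.3% for fatty acid oxidation, 28.0% for transcription regulators and 17.6% for the synthetases, against 38.8% of all such genes.

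Liver transcription factors had 18 of 32 genes (56.2%, interval 39.3% to 71.8%). Cebpb led with 3.41 and 4.31 at rank 1503, Nr0b2, the bile acid-induced repressor SHP, followed with 5.80 and 3.43, and Nfib had 5.34 and 2.62. Cebpb had 10 assigned peaks in all, although no control H3K4me2 peak was listed at its promoter. Hnf4a, which defines hepatocytes, had no promoter peak, and 5 peaks beyond it were assigned to it. Nuclear receptors had 17 of 47 (36.2%), led by Nr2c2 (5.09 and 6.41), Rxrb (4.36 and 5.82) and Nr2c1 (3.82 and 5.80). Clock genes had 10 of 22 (45.5%), with Bhlhe40 (5.21 and 6.92, rank 238), Clock itself (6.61 and 5.58, rank 242) and Bhlhe41 (6.22 and 2.54) highest, and Per1, Per2 and Arntl had no promoter peak, with 3 peaks elsewhere assigned to Per2.

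Genes of the liver's own products and detoxification were mixed. Secreted plasma proteins had 24 of 53 (45.3%), led by Plg, plasminogen (4.30 and 5.58, rank 656), Serpinf2, its inhibitor (5.22 and 4.88), and Vtn, vitronectin (3.8 and 4.66). The albumin gene Alb had 3.29 and 2.96, and Ttr had 1 assigned peak but none at the promoter. Bile acid synthesis and transport had 10 of 27 (37.0%), led by the flippase Atp8b1 (6.17 and 6.63, rank 184), the export pump Abcb11 (5.57 and 3.20) and Slc27a5 (2.2 and 5.93), while Cyp7a1, which starts bile acid synthesis, had 3 assigned peaks but none at the promoter. The urea cycle and amino acid catabolism had 14 of 39 (35.9%). Fah of tyrosine breakdown (7.35 and 5.34, rank 126), Glul, glutamine synthetase (3.73 and 5.42), and Hal, histidine ammonia lyase (4.01 and 3.92), ranked highest, and Cps1 of the urea cycle had 3 assigned peaks but none at the promoter.

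Cytochrome P450 genes had 20 of 93 (21.5%) and conjugation enzymes 13 of 62 (21%). Their highest-ranking members were Cyp3a13 (3.24 and 6.29), Cyp20a1 (4.67 and 3.84) and Cyp17a1 (4.34 and 3.84), and Gstp3 (4.23 and 5.39), Gstz1 (3.52 and 4.41) and Gstp1 (2.67 and 4.95). Only 50 and 36 members of these families carried H3K4me2 at the promoter, and of those 38.0% and 33.3% had LSD1. Solute carriers other than SLC25 had 72 of 295 (24.4%), led by the choline transporter Slc44a1 (5.17 and 9.76, rank 86), Slc9a8 (9.15 and 4.63) and Slc41a2 (8.92 and 3.03).

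Glucose metabolism had 10 of 25 (40.0%). Gys2, liver glycogen synthase (3.29 and 7.26, rank 795), Pgm1 (3.68 and 3.77) and G6pc, glucose-6-phosphatase (4.79 and 3.20), ranked highest, whereas Pck1, which commits carbon to gluconeogenesis, and Gapdh had no promoter peak. Insulin and FGF signaling had 8 of 30 (26.7%), with Irs1 (3.51 and 8.21, rank 191), Grb14 (3.0 and 5.66) and Akt1 (4.08 and 3.50) highest, and Insr and Foxo1 without a promoter peak, although 7 peaks elsewhere were assigned to Foxo1. NAD synthesis and sirtuins had 5 of 23, led by the deacetylase Sirt1 (4.91 and 8.14, rank 187), Nadk2 (4.75 and 3.17) and Nmnat3 (3.29 and 4.63), and Nampt and Sirt3 had no promoter peak, with 4 peaks elsewhere assigned to Nampt.

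Stress and immediate early genes had 17 of 38 (44.7%). A peak at rank 51 overlapped the promoter window of Gdf15, Klf10 had 6.32 and 3.68, Klf2 3.66 and 5.81, and Myc had 5 assigned peaks but none at the promoter. Canonical histone genes had 31 of 67 (46.3%), led by Hist1h4b (6.24 and 4.76) and a peak shared by Hist1h2be and Hist1h1e (4.07 and 6.41), and these near-identical genes lie close together, so that 1 peak can serve several and reads can be misplaced among them. Spliceosome genes had 15 of 37 (40.5%), led by Srsf3 (7.88 and 4.71, rank 164), Snrnp70 (8.03 and 4.63) and Srsf1 (4.34 and 5.66), RAB GTPases 22 of 59 (37.3%), led by Rab23, Rab4b (8.17 and 5.42, rank 68) and Rab33b (6.68 and 4.31), and zinc finger genes of the Zfp series 132 of 394 (33.5%), led by Zfp335 (6.89 and 7.54), Zfp282 (4.41 and 6.86) and Zfp346 (4.60 and 8.19). Proteasome subunits had 11 of 39 (28.2%), led by Psmc3 (6.17 and 5.57).

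Genes of LSD1's own machinery were among those with peaks. In the list of LSD1 and CoREST complex genes, 8 of 22 (36.4%) had one, against 23.6% of all protein-coding genes. Among the 18 members with H3K4me2 at the promoter, 7 had one (38.9%), close to the 38.8% of all such genes. Phf21a, which reads unmethylated H3K4 within the complex, ranked 40 (9.12 and 6.82). Rreb1, a zinc finger factor, had 3.17 and 7.98 and 10 assigned peaks, Rcor3, a CoREST paralog, 5.39 and 6.27, and Ctbp1, a corepressor, 4.83 and 3.50. Zfp217 (3.67 and 4.03, with 8 assigned peaks) and Zmym2 (4.83 and 2.54) lay in the upper part of the list, and Gse1 (2.50 and 3.20) and Hdac1 (2.00 and 3.23) at ranks 7926 and 8392. No promoter peak was listed at Kdm1a, which encodes LSD1, at its paralog Kdm1b, at Rcor1 or Rcor2, or at Hdac2, Hmg20b, Rest, Gfi1, Gfi1b, Ctbp2, Zmym3, Snai1 and Insm1. Of these, Kdm1a, Rcor1 and Gfi1b had no control H3K4me2 peak at the promoter either. Among the H3K4 methylases and other demethylases, 7 of 22 had one, and Kmt2a, the MLL1 methylase, ranked 11 (9.14 and 10.5), ahead of Kmt2d (4.34 and 4.52) and Ash1l (4.75 and 4.27).

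Lists of genes of other cell types had few promoter peaks. Markers of nonparenchymal liver cells had 2 of 35, Sox9 of bile duct cells (2.61 and 2.90, rank 10369) and Clec4g of sinusoidal endothelium (1.90 and 2.14, rank 14481). With peaks beyond promoters included, 9 of these 35 genes had an assigned peak and 4 had 3 or more, Sox9 with 10 among them. Genes of neurons, muscle, lens and testis had 1 of 30, Ttn (3.29 and 3.92). Olfactory receptors had 3 of 1092 and vomeronasal receptors 1 of 327. Interleukins and chemokines had 5 of 72, and Ccl27a (6.11 and 5.70, rank 321) ranked highest. None of 39 Hox genes (upper limit of the interval 8.97%) and none of 105 keratin genes (3.53%) had a promoter peak. In these groups H3K4me2 promoters were few as well, 4 among the nonparenchymal markers and 5 among the keratins, but 13 Hox genes carried the mark.

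Short DNA letters read by transcription factors were counted in the 500 bp around each peak center, on both strands, as exact matches. A match is a description and not a binding site. Beyond promoters, CAAAGTCCA, read by the hepatocyte factor HNF4A, occurred at 204 of 9614 peaks (2.12%) and in 0.657% of all 5294579 windows of the genome. The share was 3.47% where the peak overlapped H3K4me2 and 1.48% where it did not, and 2.12% in introns and 2.17% between genes. The letters CAAGGTCA, read by ERR and NR5A receptors, occurred at 4.99% against 2.72% of all windows, TGTTTAC of FOXA at 9.32% against 7.42%, and TTGNNCAA of C/EBP at 16% against 13.1%. The peaks had a higher GC content than the genome windows, which were not matched for it. The windows below are from peaks in introns or between genes and are the highest-ranking with an exon-free match to CAAAGTCCA, which is in capitals.
Tmem72, chr6:116910744-116910776, minus strand: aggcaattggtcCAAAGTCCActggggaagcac
Nnmt, chr9:48612808-48612840, plus strand: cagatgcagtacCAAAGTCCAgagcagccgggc
Apol7a, chr15:77382662-77382694, minus strand: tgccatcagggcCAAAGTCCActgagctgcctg
Hhex, chr19:37456508-37456540, minus strand: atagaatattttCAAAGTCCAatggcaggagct

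The peak with the Tmem72 window had 9.39 and 5.14, that with the Nnmt window 5.64 and 7.55, that with the Apol7a window 4.01 and 6.38, and that with the Hhex window 4.15 and 7.29. Nnmt, a methyltransferase of nicotinamide, and Hhex, a homeobox factor of liver development, are both expressed in liver.

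At promoter peaks other letters were more frequent than in the windows around all gene starts. AAGATGGCG, read by YY1, occurred at 5.07% of promoter peaks and 2.83% of windows at gene starts, and at 6.96% of promoter peaks in the top 20% of the list. GGGGCGGGG of SP and KLF factors occurred at 24.9% against 17.6%, CCGGAAGT of ETS factors such as GABPA at 7.16% against 5.88%, and GCATGCGC of NRF1 at 5.05% against 4.31%. Others were less frequent at promoter peaks, among them TGANTCA of AP-1 (6.34% against 9.58%) and CCAATCA of NFY (7.91% against 10.5%). CAGGTG, the E-box of SNAI factors, which can bring LSD1 to promoters, occurred at 31.7% against 33.9%, and AATCACNGC of GFI1 at 1.57% against 1.39%. Promoter peaks had a median GC content of 64.8% and all gene-start windows 57.0%, and the windows were not matched for it. The windows below hold AAGATGGCG, in capitals, at the highest-ranking promoter peaks with an exon-free match, which include those of the zinc finger gene Zfp335 and the nuclear receptor Nr2c2.
Zfp335, chr2:164911320-164911352, minus strand: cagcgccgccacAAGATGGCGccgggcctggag
Nr2c2, chr6:92092052-92092084, minus strand: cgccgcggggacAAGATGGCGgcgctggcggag
Usp34, chr11:23306282-23306314, minus strand: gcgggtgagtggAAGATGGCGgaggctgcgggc
Zfp207, chr11:80383194-80383226, plus strand: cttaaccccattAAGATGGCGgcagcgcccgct

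**Figure D5:**
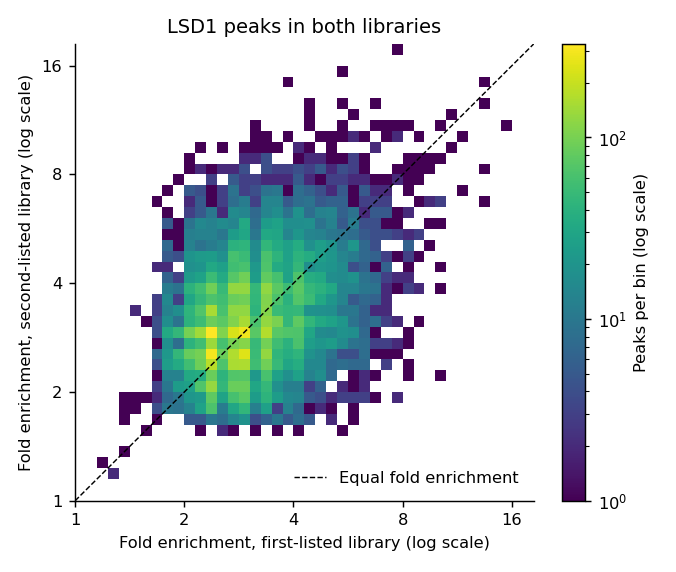
Fold enrichment of the 14584 LSD1 peaks in the first-listed (x axis) and second-listed library (y axis), both on a log2 scale and with the number of peaks per bin shown by color. The cloud lies around the line of equal values with a wide scatter, with 74.9% of the pairs within 1.5-fold of each other and a Spearman rho of 0.294.

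The list keeps only overlapping pairs, so the closeness of paired peaks is in part set by its construction, and the libraries ranked the pairs unevenly. The summits of a pair were a median of 117 bp apart, within 100 bp in 44.5% of pairs and over 500 bp in 585 pairs (4.01%). The overlap covered a median of 83.0% of the first-listed and 66.6% of the second-listed peak, and the second-listed peak was the wider in 68.5% of pairs. Fold enrichments lay within 1.5-fold of each other in 74.9% of pairs and over 2-fold apart in 871 (5.97%), of which the second-listed library was higher in 565. Spearman's rho between the libraries was 0.294 for fold enrichment, 0.386 for −log10 p-value and 0.400 for width, over the 14584 pairs. Within promoters rho for fold enrichment was 0.189 and beyond them 0.264. The correlations are taken over peaks that both libraries had to detect, which share the animals' genome and the annotation, and carry no test.

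Of the 1459 peaks in the top 10% of the first-listed library by −log10 p-value, 451 (30.9%) were in the top 10% of the second. A q-value at or below 0.05 was reached in both libraries by 2105 peaks (14.4%), in the first-listed library alone by 1203 (8.25%), in the second-listed alone by 3359 (23.0%) and in neither by 7917 (54.3%). Fold enrichments were modest in both, with the middle 50% of peaks between 2.37 and 3.67 in the first-listed and between 2.47 and 3.86 in the second-listed library, and 282 peaks (1.93%) exceeded 5 in both.

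The disagreement had named cases among peaks that passed a q-value of 0.05 in both libraries. The first-listed library was higher by most at the promoter of Ccdc88a (7.51 and 2.55, a ratio of 2.95), followed by those of Slc41a2 (8.92 and 3.03) and the liver carrier Slc25a47 (7.98 and 3.03), an intron near Stk25 (9.86 and 3.87) and the promoter of Fam49b (9.02 and 3.77). The second-listed library was higher by most at the Epha2 peak (3.76 and 14.7, a ratio of 0.26), followed by the promoters of Tcte2 (3.21 and 10.8), Cpd (3.01 and 8.89), Zfp280d (3.21 and 9.43) and Ccdc71l (4.45 and 12.8). At Epha2 the peak was 322 bp wide in the first-listed and 1390 bp in the second-listed one. With only 2 libraries and no reads, how far such differences exceed the error of a single library could not be estimated.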

How the data were processed

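The authors mapped reads to mm10 with Bowtie 2 and called narrow peaks with MACS in each LSD1 library against its control. They joined the pairs with bedtools 2.25.0. The fold enrichment in the deposited list is a ratio of ChIP pileup to control background, and the −log10 p- and q-values also come from the authors' MACS runs. Some listed p-values lie above the 0.01 named in the methods. Another 22 per-library columns (integer scores of all lists and the peak statistics of the H3K4me2 lists) were not used, nor were the H3K4me2 values of knockout liver.

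First-listed intervals served as peak positions. They were set against GENCODE release M21 (GRCm38), with 54361 TSSs of 21853 protein-coding genes, by peak center for features and by at least 1 bp of overlap for genes and H3K4me2. Repeat masking and CpG were read from the reference. Software was Python 3.11.15, scipy 1.17.1, numpy 2.4.6, pandas 2.3.3 and matplotlib 3.10.9, and the annotation steps were tested on simulated positions. Shares have 95% Wilson intervals, and nothing was tested between groups because the list holds no value per sample.

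The members, gene lists and alternatives were chosen with earlier results of these data known. Genes are named by rule: the 10 with most peaks, the 10 with the highest-ranking promoter peaks, the 5 highest-ranking peaks per feature class, the 5 most unequal peaks in each direction, the 3 highest-ranking members of each list with up to 3 well-known members that lack a peak, all CoREST genes and the 3 longest peaks. Other genes were chosen after their values were seen, in the lists as examples of high, low or absent peaks. Some genes that the rule names are not reported here.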

Additional observations from a re-analysis of the deposited data

How the results depend on the processing

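The MACS threshold moved the promoter share and the gene counts most. The promoter share, 34.1% with all peaks, was 37.2% for the 12128 peaks whose MACS p-value was 0.01 or less in each library, 62.9% for the 1699 at 1e-05 or less and 61.0% for the 2105 at a q-value of 0.05 or less. It was 32.0% for the 10753 pairs whose overlap covered 50% of both peaks, 29.2% with 1 TSS per gene, 37.7% with 2 kb on either side and 24.2% with promoters from 1 kb upstream to 100 bp downstream. Genes with a promoter peak numbered 5163, but 1199 at a p-value of 1e-05 and 1441 at a q-value of 0.05. Genes with 3 or more peaks numbered 1400, but 9 and 18 at these thresholds, 872 with 50% overlap of both peaks and 794 when peaks could go to genes of all types. The median summit distance, 117 bp, was 107 and 109 bp at these thresholds and 100 bp with 50% overlap of both peaks, where a large offset is barred by construction. Spearman's rho of fold enrichment, 0.294, was 0.273 at a p-value of 0.01, 0.148 at 1e-05, 0.141 at a q-value of 0.05, 0.348 with 50% overlap of both peaks and 0.386 with −log10 p-values. At the stricter thresholds fewer and only stronger peaks are left. Between 20 and 28 of the 37 gene lists lay above the share of all genes under every setting tried. Of 60 values under alternatives, 23 stayed within the spread or 1.5 times of the main value and 37 moved. No paired analysis was possible because the list carries no replicate numbers and gives no value per sample, and neither library could be left out because the list holds only joint peaks. With the second-listed intervals in place of the first, the promoter share was 33.6%.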

Other observations

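Peaks of low fold and high rank were few. Among the peaks in the top 20% of the list, 8 had a fold enrichment below 3 in both libraries, and they were listed after their values were seen. Besides the longest peak, on chromosome 17 at Gm42418, 4 lay on chromosome 6 in the dense stretches near Ezh2 and Pdia4. The strongest of those, with folds of 2.72 and 2.92, stood at rank 337. One of 1.48 and 1.90 lay on chromosome 1 within 722 bp of the small RNA gene Gm27940, one of 1.78 and 2.33 on chromosome 19 was nearest to Gm6020, and one of 1.33 and 1.66 on chromosome 3 was nearest to the miRNA gene Gm25352. Of the 8 peaks, those at Gm42418 and Gm25352 did not overlap control H3K4me2.

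The 18 genes with 3 or more peaks that passed a q-value of 0.05 in both libraries were Pdia4 and Rbfox2 with 5 each, Eapp and Ezh2 with 4 each, and Arsb, Btg1, Cebpb, Fgd2, Hs3st3b1, Klf3, Nedd4l, Peli2, Pim3, Rassf8, Rreb1, Shb, Slc6a6 and Tex14 with 3 each. Among them, Cebpb, Klf3 and Rreb1 encode transcription factors, and each had 10 peaks in all. At Klf3 the peaks that passed had folds of 3.19 to 5.57 in the first-listed and 5.70 to 7.29 in the second-listed library. At Rbfox2, a splicing factor, they had 3.67 to 6.02 and 3.03 to 4.63. The passing peaks of Pdia4 and Ezh2 lay in the dense stretches of chromosome 6, and none of them was at a promoter. The part of repeated copies in those stretches was not tested.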
